A study of Mus musculus with 5 samples.

Results

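NT2.5 is a mammary tumour cell line from mice that carry the neu (Erbb2) oncogene in their mammary epithelium, and the series follows how sub-lines of it came to prefer bone or liver. The comparison described here sets the bone sub-line at its 6th passage (Bo6) against the same sub-line at its 3rd passage (Bo3), which are 2 of the 5 arrays. The other arrays held parental NT2.5 cells (WT), labelled as spreading to bone, liver and lung, and the liver sub-line at its 1st (Li1) and 3rd (Li3) passage. Both bone arrays carry the label of a preference for bone, so the labels of the pair differ by passage only. Each passage was measured on 1 array, so no value below has a replicate check and no test was made. The probe sets of a gene, which read different stretches of its transcripts, were compared in place of replicates, and they share the RNA of the array. Passage, culture, RNA preparation and array cannot be told apart in this design. Animal age, culture conditions and the way each passage was recovered are not given in the sources used here, and each sub-line is 1 lineage.

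A metastatic sub-line is made by taking tumour cells from an organ, growing them and passing them through animals again. Tumour cells that grow in bone meet marrow cells and a mineralized matrix, and they can act on osteoclasts and osteoblasts through secreted factors. Interferons are secreted proteins that signal through cell-surface receptors and JAK kinases to transcription factors in the nucleus. These bind the interferon-stimulated response element, a short repeat of GAAA, in the promoters of antiviral genes, many of which stay at a low tonic level in unstimulated cells.

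Those antiviral genes were mostly lower at passage 6, and the promoter stretches that carry the element are shown for 6 of them that were at least 2-fold lower at passage 6. The 200 bases upstream of the annotated start are given 5′ to 3′ in the direction of the gene, from RefSeq on build GRCm38.p6. They lie at chr19:34640689-34640888 (plus strand) for Ifit1, chr3:142559844-142560043 (plus strand) for Gbp3 and chr12:26456453-26456652 (minus strand) for Rsad2. Bst2 is at chr8:71537473-71537672, Oas1a at chr5:120907526-120907725 and Irgm1 at chr11:48871421-48871620, all on the minus strand. Capitals mark every match to the element, searched as GAAA, any 2 bases and GAAA again, or on the other strand as TTTC, any 2 bases and TTTC; overlapping matches run together. The 6 were chosen after their values were seen, to show the element in members of the IFIT, guanylate-binding, viperin, tetherin, oligoadenylate synthetase and immunity-related GTPase families.
Ifit1: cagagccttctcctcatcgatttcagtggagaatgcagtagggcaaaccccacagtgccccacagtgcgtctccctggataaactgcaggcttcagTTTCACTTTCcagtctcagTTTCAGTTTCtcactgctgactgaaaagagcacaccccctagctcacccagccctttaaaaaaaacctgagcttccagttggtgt
Gbp3: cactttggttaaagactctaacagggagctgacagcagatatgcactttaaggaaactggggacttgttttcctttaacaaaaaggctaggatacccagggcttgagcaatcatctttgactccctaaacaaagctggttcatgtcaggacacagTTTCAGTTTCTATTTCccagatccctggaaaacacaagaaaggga
Rsad2: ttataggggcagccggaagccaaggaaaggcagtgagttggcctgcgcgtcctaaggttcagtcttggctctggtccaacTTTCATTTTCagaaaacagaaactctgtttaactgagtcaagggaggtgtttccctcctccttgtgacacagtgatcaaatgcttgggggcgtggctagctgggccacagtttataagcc
Bst2: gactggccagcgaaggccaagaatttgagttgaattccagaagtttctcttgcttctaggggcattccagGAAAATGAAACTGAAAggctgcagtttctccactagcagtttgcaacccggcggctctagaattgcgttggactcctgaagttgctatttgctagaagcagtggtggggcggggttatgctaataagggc
Oas1a: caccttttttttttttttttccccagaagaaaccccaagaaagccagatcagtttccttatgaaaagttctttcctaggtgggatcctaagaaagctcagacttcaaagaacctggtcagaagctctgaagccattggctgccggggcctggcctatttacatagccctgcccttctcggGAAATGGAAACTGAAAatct
Irgm1: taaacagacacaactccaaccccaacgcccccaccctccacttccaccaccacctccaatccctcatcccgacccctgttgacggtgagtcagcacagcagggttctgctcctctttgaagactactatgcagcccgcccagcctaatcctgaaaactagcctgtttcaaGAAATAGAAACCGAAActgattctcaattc
The first base of a match sat as near as 14 bases to the start in Oas1a and as far as 130 bases from it in Bst2. Of the 50 interferon response genes kept for comparison, 38 had a promoter window of 250 bases before to 50 after the start in the table. The element was found in 19 of these 38 (50%), against 3.62% of the 10180 genes kept on the array that have a window and 3.44% of all 32851 windows. Among the members at least 2-fold lower at passage 6 it was found in 9 of 15 (60%), and among the other members in 10 of 23 (43.5%). The median log2 difference was -0.99 over the 19 members with the element and -0.64 over the 19 without it. The list was chosen as genes that interferon induces, which fixes in part its excess of the element over all genes. The contrasts within the list rest on few genes and were not tested. No match lay in the windows of Irf7, Irf9, Oasl2, Xaf1 and Cmpk2, which says only that these letters are not in those windows.

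Across all genes, further passage in bone came with more genes lower than higher. Differences are given on the log2(intensity + 16) scale, passage 6 minus passage 3, which understates the change of dim genes. Of 12609 genes, 261 were at least 2-fold lower at passage 6 (2.07%) and 45 at least 2-fold higher (0.357%). The passage 6 array was dimmer at its low end, with a median intensity over all probe sets of 21.9 against 26.4 at passage 3 and 24.6 to 26.2 on the other 3 arrays. After quantile normalization the counts were 218 lower (1.73%) and 71 higher (0.563%), so that the share of higher genes among those past 2-fold moved from 14.7% to 24.6%. The lower genes number 217 and the higher genes 44 when both scalings must pass. The median difference of all genes was -0.04 as deposited and 0 after quantile normalization.

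The excess of lower genes lay mainly among dim ones. Among 3124 genes with a mean intensity under 50 in the bone arrays the median difference was -0.19, and 143 were 2-fold lower against 20 higher. Among 4557 genes between 200 and 1000 the median was 0.01, with 38 lower and 7 higher, and among 1342 genes at 1000 or more it was 0.10, with 3 lower and 1 higher. RNA quality controls were near each other, with a 5′ to 3′ intensity ratio of 0.842 at passage 3 and 0.874 at passage 6 for beta-actin and of 1.27 and 1.24 for Gapdh. Pearson's r between the bone arrays was 0.979 across the 12609 genes, and genes are not independent of each other.

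**Figure D1:**
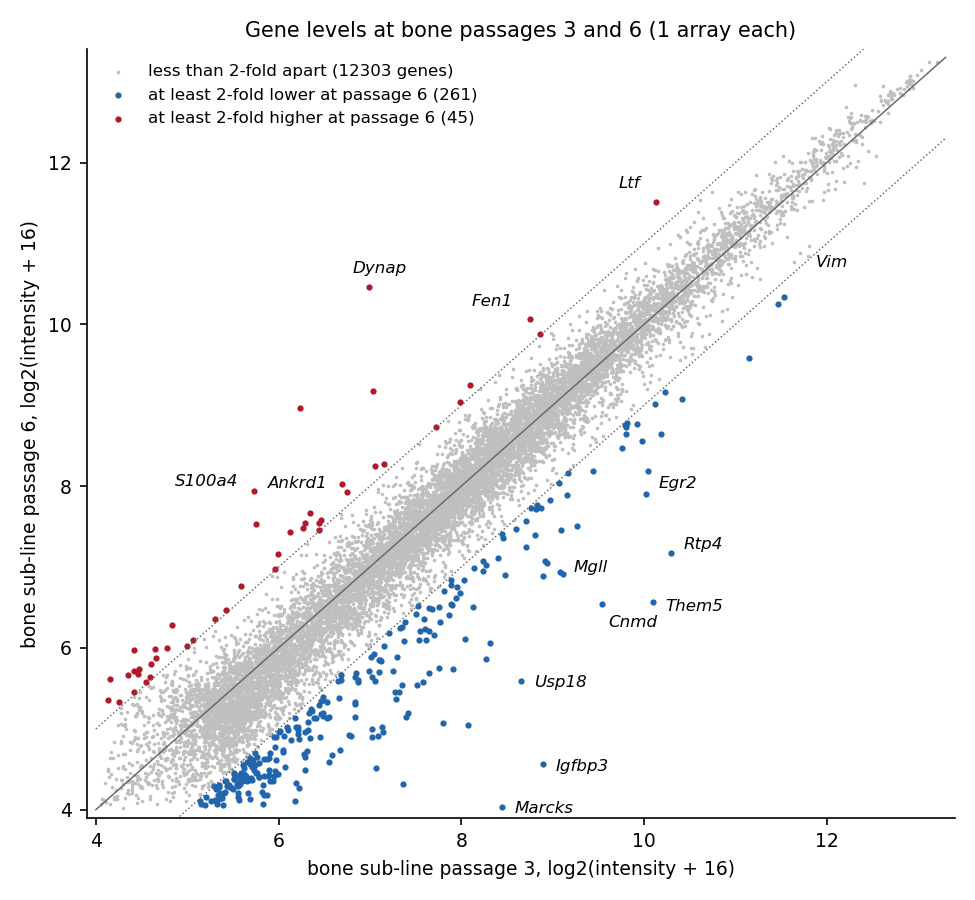
Each point is 1 gene, with its level at bone passage 3 on the x axis and at bone passage 6 on the y axis, both as log2(intensity + 16) from 1 array; the solid line marks equal levels and the dotted lines a 2-fold difference. The 261 blue genes outnumber the 45 red ones, and many of the blue points lie at low levels, while Marcks, Igfbp3, Them5, Rtp4 and Cnmd lie far below the line at higher passage 3 levels.

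Among genes past 2-fold, the measured probe sets of a gene gave the same direction wherever there were 2 or more. A probe set was counted as measured where the brighter of the bone arrays was at 50 or more. Of the 261 lower genes 54 had 2 or more measured probe sets, and in all 54 of them every measured probe set was lower. In 39 of the 54 (72.2%) every one was at least 2-fold lower, which is 0.899% of the 4340 genes with 2 or more measured probe sets. Of the 45 higher genes 6 could be checked, all with 1 direction, and in 3 every measured probe set was at least 2-fold higher (0.0691% of the 4340). These 3 were Ankrd1 and a pair of genes known only by a predicted or clone name. Most genes past 2-fold thus had 1 measured probe set or none, and 21 of the 306 genes past 2-fold have only a RIKEN, predicted or clone name. The probe set by which a gene was called is among those counted where measured. A probe set of a lower gene could count through passage 3 alone. The choice of genes thus fixes part of the agreement. Over all 4340 genes with 2 or more measured probe sets, every measured one was lower in 1472 and higher in 1268.

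The largest differences were losses of single genes from the passage 3 level. Marcks, which encodes a membrane-bound substrate of protein kinase C that binds actin, read 332 at bone passage 3 and 0.4 at passage 6. It read 1804 in parental cells and 648 and 841 at liver passages 1 and 3, so passage 6 was the lowest of the 5 arrays. All 6 measured probe sets of Marcks were lower, with differences from -4.41 to -1.51. A difference of -4.41 corresponds to 21.2-fold on this scale. Igfbp3, a secreted binding protein for insulin-like growth factors, read 459 at passage 3 and 7.6 at passage 6, and its measured probe sets differed by -4.33 and -4.07. The parental array was at 490.3 and the liver arrays at 112 and 218, all above bone passage 6.

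A further set of genes was high at bone passage 3 compared with the parental and liver arrays and lower again at passage 6. Them5, a mitochondrial acyl-CoA thioesterase, went from 1077 to 78.6 (-3.53, with -3.40 in its other measured probe set), against 69.1 in parental cells and 16 and 3.9 in the liver sub-line. Cnmd, which encodes the cartilage protein chondromodulin, went from 726 to 77.1 (-2.99, 1 probe set), and the other 3 arrays lay between 73.2 and 109.6. The monoglyceride lipase gene Mgll went from 539 to 105, and its 3 measured probe sets differed by -2.23 to -2.09. In all 3 genes bone passage 3 stood above the other 4 arrays; at passage 6 Them5 and Cnmd lay near the parental level, and Mgll at 105 lay above its parental 50.

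Haptoglobin (Hp), an acute-phase protein that binds haemoglobin, read 148.5 at bone passage 3 and 3.9 at passage 6 (-3.05), against 1.5 in parental cells and 2.7 and 27.4 in the liver sub-line. Klrb1a, a lectin-like receptor gene of natural killer cells, read 118 and 6.8 (-2.56), with 6.8 the lowest of the 5 arrays. The T and natural killer cell markers as a whole are given with the other cell types below. Clca3a2, of the calcium-activated chloride channel regulator family, read 476 and 117, and its measured probe sets differed by -1.89 and -1.88. It was at 10.5 in parental cells and at 217 and 267 in the liver sub-line, so its passage 6 level stayed above the parental one.

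Other genes had their lowest value of the 5 arrays at passage 6. Nrp1, which encodes neuropilin 1, a co-receptor for semaphorins and vascular endothelial growth factor, read 125 at passage 3 and 15.1 at passage 6. Its measured probe sets differed by -2.18 and -1.39, and the other arrays lay between 220.4 and 349. Chst1, a sulfotransferase that acts on keratan sulfate, read 254 and 17 (-3.03), with 129.7 to 171 on the other arrays. Limch1, a regulator of non-muscle myosin, read 153 and 19.5, and its measured probe sets differed by -2.25 and -1.55. Bace2, a transmembrane aspartic protease, is unlike these, since its passage 6 value of 27.9 (from 139 at passage 3) was close to the parental 27.3; its 3 measured probe sets differed by -2.11 to -1.82.

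**Figure D2:**
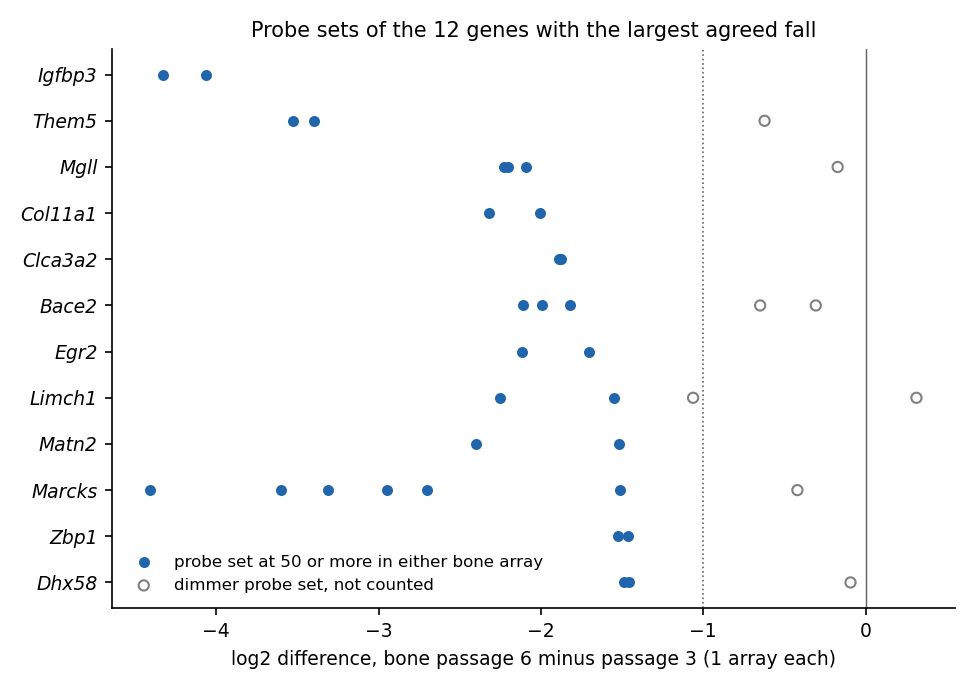
Each point is 1 probe set of the 12 lower genes with the largest agreed difference, with the log2 difference of passage 6 minus passage 3 (1 array each) on the x axis; the dotted line marks 2-fold. Filled points are probe sets at 50 or more in either bone array and all lie left of the line, from Igfbp3 (-4.33 and -4.07) to Dhx58 (-1.49 and -1.46), while open points are dimmer probe sets that were not counted.

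Genes induced by interferon were lower at passage 6 as a group. Of 50 kept members, 48 were lower at any size (96%), against 55.6% of all genes, and 20 were at least 2-fold lower (40%), against 2.07% of all genes. None was 2-fold higher. The median difference was -0.75 as deposited and -0.71 after quantile normalization, when 47 were lower at any size (50% of all genes) and 18 were 2-fold lower. In all 13 members with 2 or more measured probe sets every measured probe set was lower. Among all genes this held for 1472 of 4340. Among the 20 members with a mean bone level of 200 or more, 18 were lower, 7 of them 2-fold, with a median of -0.72. Of the 5899 genes of that brightness 2674 were lower, 41 of them 2-fold, with a median of 0.03.

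Rtp4, an interferon-induced chaperone of receptor proteins, read 625 in parental cells, 1240.2 at bone passage 3, 129 at bone passage 6, and 912 and 1267 at liver passages 1 and 3. Its difference was -3.12 and bone passage 6 was the lowest array. Usp18, the protease that removes ISG15 from proteins and restrains receptor signalling, read 125, 387, 32.3, 289.9 and 405 in the same order (-3.06). Ifit1, which binds viral RNA that lacks a methylated cap, read 57.1, 207, 17.6, 162 and 335 (-2.73). In each of these genes passage 6 lay below the parental array, and the other sub-line arrays lay above it.

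The transcription factors of the response were among the lower genes. Irf7, which amplifies interferon production, read 66.5 in parental cells, 224 at bone passage 3, 37.5 at bone passage 6 and 108 and 197 in the liver sub-line (-2.16). Irf9, a DNA-binding factor of the response, read 461 at bone passage 3 and 103 at passage 6 (-2.01). Stat2 read 57.1 and 34.9 (-0.52). Irf1, which interferon gamma induces, was at 406 and 427 (0.07), one of the 2 members that were not lower; the other was Ifit2 at 186 and 218 (0.21). Of these, Irf9, Stat2, Irf1 and Ifit2 do not come from the naming rule; they were picked with their values in view.

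Effectors and sensors of the response were lower too. Oasl2, of the oligoadenylate synthetase-like family, read 303 and 50.9 at passages 3 and 6 (-2.25), and the guanylate-binding protein gene Gbp3 read 114 and 13.8 (-2.12). Zbp1, a sensor of Z-form nucleic acid, read 180.4 and 52.3, with measured probe sets at -1.52 and -1.47. Dhx58, the LGP2 regulator of RNA sensing, read 217 and 68.9, with probe sets at -1.49 and -1.46. Both had agreeing probe sets, and Zbp1 at passage 6 remained above the parental 34.5. Of members chosen after their values were seen, Ifi27 read 2248 and 752, with probe sets at -1.56 and -1.39, Bst2, the tetherin that holds virions at the membrane, 529 and 159 (-1.64), Xaf1, an antagonist of apoptosis inhibitors, 600.4 and 166 (-1.76), and Rsad2, or viperin, 86.1 and 10.7 (-1.94). The members closest to the 2-fold line on the lower side were Oas1a (873 and 417, -1.04), Irgm1 (417 and 196, -1.03) and Ifi47 (168 and 75.6, -1.01).

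Against all 5 arrays, bone passage 6 had the lowest value in 36 of the 50 members (72%) and in 26.1% of all 12609 genes. Bone passage 3 was above the parental array in 45 of the 50 members, with a median of 0.63 over parental, and bone passage 6 was above it in 11, with a median of -0.29. The order of the arrays for these genes thus put passage 3 above parental cells and passage 6 below them. In the liver sub-line, which shares no array with the bone pair, the same members had a median of 0.44 from passage 1 to passage 3, with 5 at least 2-fold higher and 0 lower, against 1.68% of all genes higher and 1.13% lower.

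**Figure D3:**
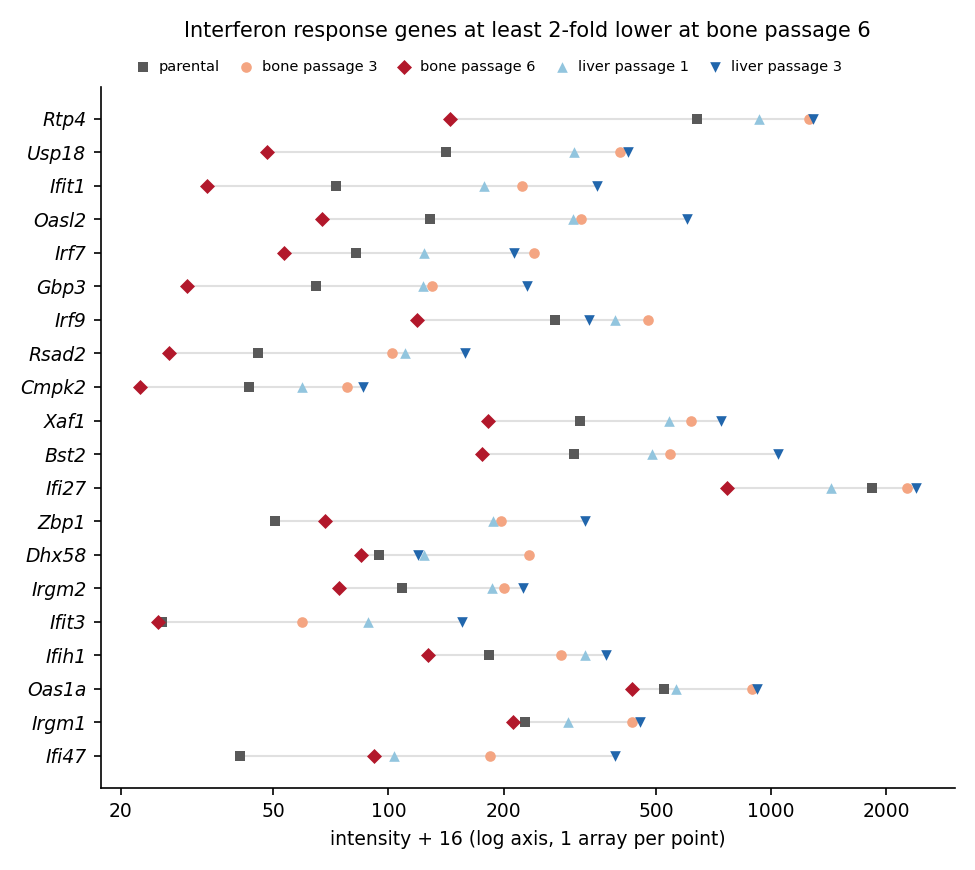
Each row is 1 of the 20 interferon response genes at least 2-fold lower at bone passage 6, with intensity + 16 on a log axis and 1 point per array. The dark red diamonds of bone passage 6 are the leftmost points in every row but Zbp1 and Ifi47, where the parental value is lower, and the bone passage 3 and liver passage 3 points lie at the right in most rows.

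No interferon or receptor gene was 2-fold apart. These genes and the signalling list that follows were added after values had been seen. Ifnb1, which encodes interferon beta, was at 24.8 and 16.8, Ifna1 at 21.7 and 3.6 (-0.94) and Ifng at 0.5 and 0.2, all dim. The receptor chain genes Ifnar1 (217 and 176) and Ifnar2 (254 and 259) differed by -0.28 and 0.02. Of 8 kept members of this list 7 were lower (87.5%, against 55.6% of all genes). The median was -0.30 as deposited and -0.18 after quantile normalization. Of 18 kept genes for kinases, adaptors, interferon regulatory factors and nucleic acid sensors none was 2-fold lower, with a median of -0.14; the kinase gene Jak1 was at 637 and 661, Tbk1 at 516 and 533, and the adaptor gene Mavs at 289 and 207. Tlr9, the endosomal sensor of unmethylated DNA, was higher (5.3 and 47.1, 1.57), below the floor for a measured probe set on both arrays. Genes of MHC class I presentation, many of which interferon also induces, had a median of -0.07 over 15 members with none 2-fold apart; B2m, the light chain, was at 4634 and 3459 (-0.42) and the peptide transporter Tap1 at 176 and 109.6 (-0.61).

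Insulin-like growth factor genes included 3 of 13 members that were 2-fold lower (23.1%, against 2.07% of all genes) and none higher, with a median of -0.37. After quantile normalization 2 were 2-fold lower, Irs2 being at -0.99, and 1 was 2-fold higher. Beside Igfbp3, the binding protein gene Igfbp5 was at 2817 and 1204, with probe sets at -1.22 and -1.15. The insulin receptor substrate gene Irs2 was at 73.5 and 25 (-1.13). The receptor gene Igf1r was at 282 and 281, and Igfbp4 was higher in all 6 of its measured probe sets by less than 2-fold (3915 and 4551, 0.22). Igf1r and Igfbp4 were picked with their values in view.

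Cartilage and bone matrix genes were another group with lower members. Col11a1, a fibrillar collagen of cartilage, was at 200.3 and 37.9, with probe sets at -2.32 and -2.00, and parental cells were at 385. Col9a1, a chain of the collagen on the surface of cartilage fibrils, was at 2945 and 1275, with probe sets at -1.20 and -1.09. Matn2, a filament-forming matrix adaptor, was at 293 and 42.4 (-2.40 and -1.52). Mgp, which encodes the matrix Gla protein that restrains mineralization, was at 995 and 361 (-1.42), with 1284 in parental cells and 373 and 204 in the liver sub-line. Of 6 kept chondrocyte markers 2 were 2-fold lower (Col11a1 and Col9a1), with a median of -0.18, and -0.10 after quantile normalization. Over 14 kept members of a cartilage matrix list made after these values were seen, 7 were 2-fold lower (50%, against 2.07% of all genes) and the median was -0.89, which the choice of members fixes in part. Sox9, the transcription factor of cartilage, was at 431 and 379 (-0.18), while Acan (21.2 and 21.5) and Comp (22.7 and 25.9), matrix proteins of cartilage, were dim on both arrays, and Col2a1, its main collagen, was at 7.8 and 1.2.

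Of 10 kept genes of bone matrix and mineralization 3 were 2-fold lower, namely Mgp, the carbonic anhydrase gene Car2 (556 and 221, -1.27) and the matricellular gene Postn (131 and 56.7, -1.02), against 2.07% of all genes. After quantile normalization 2 were, with Postn at -0.90. The median of the 10 was -0.28. Among 18 factors that act on osteoclasts none was 2-fold apart and the median was 0.01. Csf1, which supports osteoclast precursors, was at 492 and 491, the Notch ligand gene Jag1 at 362 and 425 (0.22), and Tnfrsf11b, the decoy receptor osteoprotegerin, at 47.9 and 25.6 (-0.62), under the floor for a measured probe set.

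Immediate early genes, which growth factor signalling and handling of cells switch on within minutes, were mostly lower. Of 32 members 24 were lower (75%, against 55.6% of all genes), with a median of -0.38. At 2-fold 2 were lower (6.25%, against 2.07% of all genes). Egr2 was at 1021 and 223, with probe sets at -2.12 and -1.70, and Klf4 at 121 and 36, with probe sets at -1.39 and -0.92. Egr1 was at 3172 and 1731 (-0.87) and Fos at 5114 and 3915 (-0.38), both chosen after their values were seen. Egr2 was also lower at the later liver passage (278 and 66.8, -1.83).

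Signalling genes of development had scattered members past 2-fold. Hey1, a transcriptional repressor downstream of Notch, was at 852 and 340.1 (-1.29). It was the only one of 21 Notch pathway genes past 2-fold (4.76%, against 2.07% of all genes 2-fold lower). Bambi, a decoy receptor of the TGF-beta family, was at 230.3 and 82.1 (-1.33), the only one of 26 in its list (3.85%, against the same 2.07%). Of 32 Wnt pathway genes 4 were 2-fold lower as deposited (Fzd8, Wnt5b, Lef1 and Wnt3a, from -1.23 to -1.07; 12.5%, against 2.07% of all genes) and 1 after quantile normalization (background 1.73%), and 3 of these 4 were under the floor for a measured probe set. Of 14 angiogenic factors and receptors Nrp1 and Hgf were 2-fold lower (14.3%, against 2.07% of all genes), and Hgf, a growth factor at 46.6 and 8.4, had no measured probe set; the list median was -0.33, but 0.27 among members with a mean of 200 or more.

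Single members of other lists were lower as well. Aldoc, a glycolytic aldolase, was at 1353 and 526, with probe sets at -1.34 and -1.11. It was the only one of 27 hypoxia and glycolysis genes past 2-fold (3.70%, against 2.07% of all genes 2-fold lower). Trib3, a pseudokinase induced by amino acid stress, was at 877 and 385, with probe sets at -1.21 and -1.16. It was lower at the later liver passage too (1923 and 403, -2.21). The claudin gene Cldn2 was at 76.2 and 19.1 (-1.39 and -1.11), the keratin gene Krt23 at 223 and 76.8 (-1.36), the integrin gene Itgb8 at 404 and 174 (-1.14) and the glutathione transferase gene Gstm2 at 221 and 98.1 (-1.05). After quantile normalization Gstm2 was at -0.96, short of 2-fold. The chemokine genes Ccl5 (35.7 and 1.5, -1.56) and Cxcl10 (22.2 and 1.3, -1.14) were dim on both bone arrays, and both are also interferon-induced.

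Most genes of cell division were higher at passage 6, all but Fen1 of these by less than 2-fold. All 29 kept mitosis genes were higher (100%, against 44.2% of all genes), with a median of 0.50. After quantile normalization, when 49.9% of all genes were higher and 50% lower, all 29 were still higher, with a median of 0.47. Of 30 DNA replication genes 27 were higher (90%), 1 of them 2-fold, with a median of 0.58 (0.52 after quantile normalization). In 12 of 15 mitosis genes and 15 of 17 replication genes with 2 or more measured probe sets, every measured probe set was higher. Among all genes this held for 1268 of 4340. The median difference was 0.50 for the 27 mitosis genes and 0.59 for the 27 replication genes with a mean of 200 or more, against 0.03 for all 5899 genes of that brightness.

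Fen1, the nuclease that trims Okazaki fragments, was the replication gene past 2-fold, at 416 and 1059; its measured probe sets differed by 1.32 and 0.68. The other genes named here were chosen after their values were seen. Rrm2, a subunit of ribonucleotide reductase, was at 1544 and 2949, with 3 measured probe sets between 0.93 and 1.00. The helicase subunit gene Mcm2 was at 1016 and 1709 (0.74) and Mcm5 at 2069 and 3158, with probe sets at 0.61 and 0.73. Birc5, which encodes survivin of the chromosomal passenger complex, was at 1123 and 1953 (0.79), the topoisomerase gene Top2a at 1401 and 2247 (0.68), and the proliferation marker Mki67 at 495 and 703 (0.49). The 3 replication genes that were not higher were Tyms (38.5 and 22, dim), Gins2 (518 and 474, with probe sets of both signs) and the transcription factor E2f1 (228 and 214).

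Parental cells lay above bone passage 3 in these groups. The median of passage 3 minus parental was -0.52 for the mitosis genes and -0.37 for the replication genes. At passage 6 the mitosis median was -0.01 relative to parental, with 12 of 29 members above the parental array, and the replication median was 0.20, with 22 of 30 above it. Bone passage 6 was the highest of the 5 arrays in 22 of 30 replication genes (73.3%) and 12 of 29 mitosis genes (41.4%), against 17.2% of all genes. In the liver sub-line the later passage was higher too, by a median of 0.46 for mitosis and 0.61 for replication. The recorded passage numbers say nothing of how dense or fast-growing each culture was, and the part of growth state in these values was not tested. The promoters of the replication genes held an E2F-type match (TTTGGCGC or TTTCCCGC, either strand) in 8 of 25 (32%) against 3.36% of genes kept on the array. Those of the mitosis genes held it in 0 of 24. CCAAT on either strand lay in 20 of 24 mitosis promoters (83.3%) and 14 of 25 replication promoters (56%), against 42.6%. The E2F and CCAAT searches were added to the planned search for the interferon element.

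**Figure D4:**
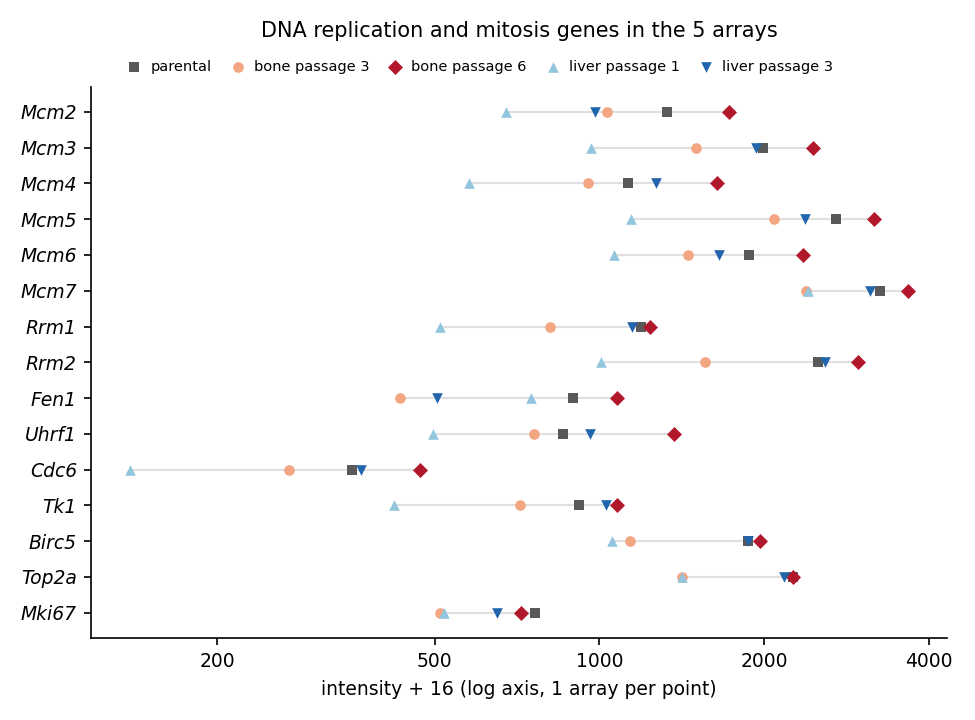
Each row is 1 of 12 DNA replication and 3 mitosis genes, chosen after their values were seen, with intensity + 16 on a log axis and 1 point per array. Bone passage 6 (dark red diamonds) lies right of bone passage 3 (orange circles) in every row and is the rightmost point in all but Mki67.

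Other lists of growth and metabolism had no member 2-fold apart. The median was 0.01 over 20 genes of cholesterol synthesis, -0.09 over 17 of fatty acid synthesis, -0.13 over 19 targets of p53 and 0.20 over 15 heat shock proteins. Over 28 genes of oxidative phosphorylation it was 0.05 and over 20 ribosomal protein genes 0.07, and both medians turned sign after quantile normalization (-0.03 and -0.02).

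Few genes were gained by more than 2-fold, and most of those rest on 1 probe set. Dynap, a membrane protein that binds dynactin, was at 111 in bone passage 3 and 1389 in bone passage 6 (3.47, or 11.1-fold), with 203.5 in parental cells and 40.5 and 169 in the liver sub-line. S100a4, a calcium-binding protein linked to cell motility and metastasis, was at 37.3 and 230.3 (2.21), with 155 in parental cells and 29.8 and 113.5 in the liver sub-line. Passage 6 was the highest array for both genes. Padi1, which converts arginine to citrulline in epidermal proteins, was at 38 and 168.5 (1.77), and Il18r1, a chain of the interleukin 18 receptor, at 65.5 and 188 (1.32).

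Ltf, which encodes the iron-binding milk and granule protein lactoferrin, was at 1105 and 2902 (1.38), with parental cells higher still at 4039. Ppp1r12b, a subunit of myosin phosphatase, was at 87.8 and 245 (1.33), though only 1 of its 4 probe sets was measured. Ankrd1, a target of the YAP coactivator, was at 91.9 and 228, with both probe sets past 2-fold (1.18 and 1.70). Its liver values of 602 and 3496 were above both bone arrays. Cd14, the co-receptor for endotoxin, was at 450.2 and 928 (1.02), the plasminogen activator gene Plau at 27.1 and 72.4 (1.04), and Epgn, an ERBB ligand, at 70.7 and 159 (1.01). After quantile normalization Cd14 was at 0.97, short of 2-fold. Of dim genes, Bsnd, a chloride channel subunit, was at 1.8 and 32.9 and the thromboxane receptor gene Tbxa2r at 9 and 47.6, below the floor on both arrays.

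Some genes gained in bone were also gained in liver. Of the 45 genes 2-fold higher at bone passage 6, 9 were 2-fold higher at liver passage 3 than at liver passage 1 (20% of the 45 and 4.25% of the 212 higher in liver), and none was 2-fold lower. The background for the liver pair was 1.68% of all genes. These genes were Ankrd1, Dynap, S100a4, Myb, Scube3, Akr1c13, Tlr9, Slc43a1 and 1 with a clone name. Of the 261 lower genes 11 were 2-fold lower in liver (4.21% of the 261 and 7.75% of the 142 lower in liver, against 1.13% of all genes), Egr2 and Trib3 among them. Another 8 were 2-fold higher there, among them Bst2, Ifi47 and Hp. Across all genes Pearson's r between the bone and liver differences was 0.10, and genes are not independent replicates.

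The cells kept their mammary epithelial markers at both passages. Of 11 kept members none was 2-fold apart, with a median of 0.04 as deposited and -0.05 after quantile normalization. Epcam, an epithelial adhesion molecule, was at 4262 and 4384, the cadherin gene Cdh1 at 3511 and 3282, and Erbb2 at 342 and 319.5. The luminal keratin genes Krt8 (3874 and 4829, 0.32) and Krt18 (6255 and 7880.4, 0.33) were higher by less than 2-fold. In the wider list of luminal keratins and hormone response, 9 of 13 kept members were lower (69.2%, against 55.6% of all genes). Of the 13, Krt23 and Prom1 were 2-fold lower (15.4%, against 2.07% of all genes). Prom1, at 32.4 and 4.9, had no measured probe set. The list median was -0.23 (-0.35 after quantile normalization). Vim, an intermediate filament of mesenchymal cells that NT2.5 cells also carry, was at 3525 and 1818, and its 3 probe sets differed by -1.08 to -0.83. Parental cells were at 5740.2. Its list of mesenchymal markers and regulators went the other way. Of 7 kept members 5 were higher (71.4%, against 44.2% of all genes), with a median of 0.13 (0.30 after quantile normalization). Only Vim among the 7 had 2 or more measured probe sets, so the higher members have no such probe set check. Beta-actin (Actb) was at 6720 and 7067 (0.07).

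Genes that separate the bone arrays from parental cells were at similar levels at both passages in some cases. Ecrg4, a secreted peptide precursor, was at 90.3 in parental cells and at 6117 and 5801 in bone (-0.08), and Sostdc1, a BMP and Wnt antagonist, at 69.3, 2456 and 1962 (-0.32). Kank4, an ankyrin-repeat adaptor, was at 59.3, 1097 and 502, a difference of -1.10 that left passage 6 above parental cells. The homeobox gene Rhox5 was at 2810 in parental cells, 63 at bone passage 3 and 126 at passage 6 (0.84). At liver passages 1 and 3, Ecrg4 (5663 and 4948) and Sostdc1 (1133 and 956) were above parental cells too. Kank4 read 24.6 and 34.1 in the liver sub-line, and Rhox5 1662 and 3731. These genes entered the naming rule because of earlier results on the same arrays.

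Markers of other cell types were low on both arrays, with exceptions. In bulk RNA, fewer cells of a type and less RNA per cell cannot be told apart. The summed intensity of the T and natural killer cell markers was 157 at passage 3 and 138 at passage 6, with 11 of 12 genes under 50 on both arrays. Endothelial markers summed to 350.5 and 225 (9 of 12 under 50) and fibroblast markers to 214 and 173 (10 of 12). Macrophage markers summed to 1016 and 1364, with 13 of 19 under 50 and the difference carried by Cd14; Fcer1g, an Fc receptor chain, went the other way (64.7 and 20.5, -1.14), and the complement gene C1qa was at 1 and 1.2. B and plasma cell markers summed to 497 and 276, 8 of 9 being under 50, and Ighm, the immunoglobulin mu chain, made up most of that (332 and 155, 1 of 11 probe sets measured). Neutrophil markers summed to 1590 and 3230, of which Ltf alone gave 1105 and 2902. Chondrocyte markers summed to 3659 and 1765, of which Col9a1 gave 2945 and 1275. Osteoclast markers summed to 919 and 798 (6 of 11 under 50), of which Acp5 gave 410 and 320. Osteoblast and osteocyte markers summed to 606 and 526 (7 of 10 under 50), of which Alpl gave 445 and 395. Hepatocyte markers summed to 729 and 645 (9 of 10 under 50), of which Arg1 gave 640 and 578. The part of other cells in the interferon, matrix and immune gene differences was not tested.

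**Figure D5:**
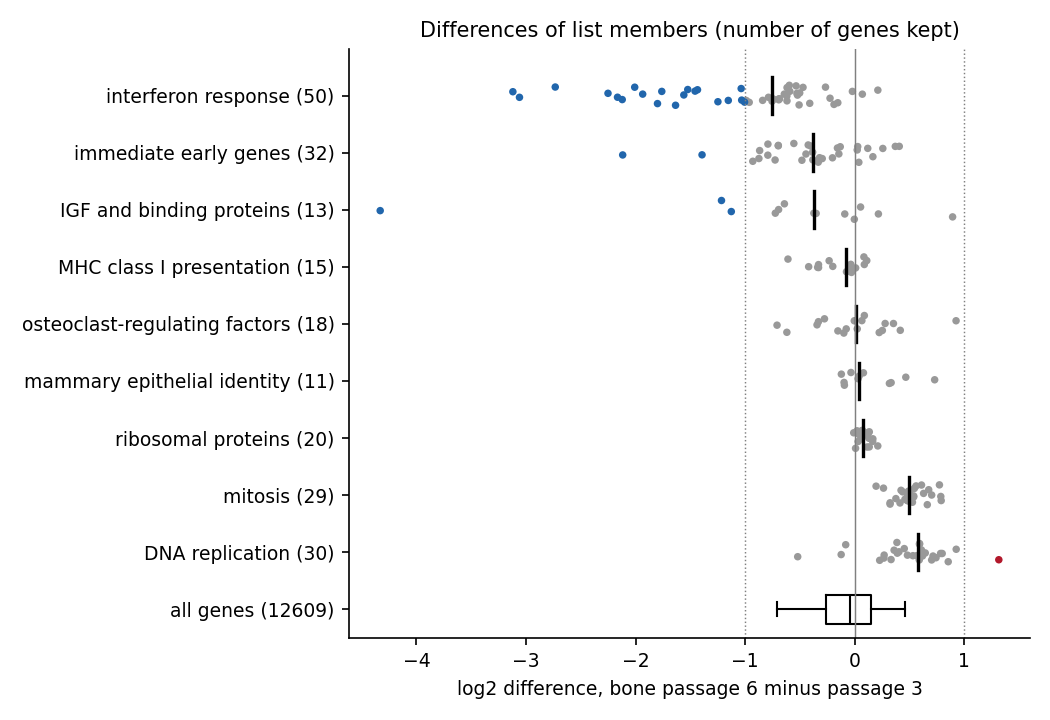
Each point is 1 kept gene of a list, with its log2 difference of bone passage 6 minus passage 3 (1 array each) on the x axis; black bars are list medians, dotted lines mark 2-fold, and the box for all 12609 genes spans the quartiles with whiskers at the 5th and 95th percentiles. The interferon response genes have the lowest median of these lists (-0.75), while the single lowest point is Igfbp3 (-4.33). The medians of the mitosis (0.50) and DNA replication (0.58) genes lie to the right. Those of the mammary, ribosomal and osteoclast-regulating genes lie near 0.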

How the data were processed

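For each of 45101 probe sets of an Affymetrix mouse array, the deposited value is a linear intensity, with 1 array per sample. The submitters' processing notes name RMA, but the intensities are not on a log2 scale; each array's mean after trimming 2% was 150. Other steps are not given in the sources used here. Values were converted to log2(intensity + 16) without further normalization. Of the probe sets, 34958 had 1 gene in the platform annotation (34754 matched to RefSeq names, GRCm38.p6); 932 with several genes were left out. Genes whose highest value was under the median of all values, 25.1, were dropped, and the brightest probe set stood for a gene, leaving 12609 of 18193. No p-values were computed; 2-fold differences were counted.

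The members and the 52 gene lists were chosen with earlier results of these data known. The naming rule took, per direction, the 12 largest differences, the 12 largest with agreeing probe sets, up to 6 members per list and a set of fixed genes, 78 in all. The scripts (Python 3.11.15) were tested on simulated data. Alternatives were quantile, median and loess scaling, other pseudocounts, filters, probe set rules and thresholds. The number of arrays limits the precision.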

Additional observations from a re-analysis of the deposited data

Results flagged for a closer look

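Several values moved one way between the bone passages and the other way between the liver passages (liver passage 3 minus passage 1). Each rests on 1 array per passage, and the difference between the sub-lines was not tested. Hp had a log2 difference of -3.05 in bone and 1.21 in liver. The interferon response genes had a median of -0.75 in bone and 0.44 in liver. Among marker lists of other cell types, the endothelial genes had medians of -0.50 and 0.23, the B and plasma cell genes -0.38 and 0.26, the neutrophil genes -0.28 and 0.24 and the erythroid genes -0.29 and 0.27. After quantile normalization the bone medians of these 4 lists were -0.38, -0.22, -0.12 and -0.18 in the same order. These marker lists had between 3 and 6 kept members, most of them dim.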

How the results depend on the processing

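No paired analysis was possible because each passage was measured on 1 array, so no replicate could be left out either. The 45 genes 2-fold higher at bone passage 6 became 71 with quantile normalization, 96 with median centring, 71 with loess, 168 with a pseudocount of 1, 9 with a pseudocount of 64 and 5 at a 3-fold threshold. The 261 lower genes became 651 and 71 with pseudocounts of 1 and 64 and 57 at 3-fold, and the 354 genes 2-fold apart in liver became 800 and 128 with those pseudocounts. Genes with all measured probe sets 2-fold lower went from 39 to 23 with median centring, 12 with a pseudocount of 64 and 7 at 3-fold, and those 2-fold higher from 3 to 5 with median centring and 1 at 3-fold. A minimum mean of 200, chosen after seeing the data, left 8 higher and 41 lower genes, 20 interferon response members (18 lower, 7 of them 2-fold) and turned the angiogenic median to 0.27. Of 65 named genes past 2-fold, 35 stayed past it in every alternative and 0 reversed. The median ranged from -1.0 to -0.56 for the interferon response genes, from 0.45 to 0.66 for mitosis and from 0.49 to 0.74 for DNA replication. Signal near background limits the dim genes most.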
